A study of Mus musculus with 10 samples.

Results

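Complex I of the mitochondrial respiratory chain is described here through the mouse genes whose symbol starts with Nduf, in the livers of mice on a high-fat diet with and without ethanol. Each array probe was named through its RefSeq accession. This gave 54 of the 56605 non-control probes, and 46 of the 22911 genes named on the array. All 46 genes were measured on every array, with the probe used for each gene well above background on all 10 arrays, so that the filter on dim probes removed no gene. Another 8 Nduf symbols of the reference, among them Ndufb1, matched no probe and were not analysed here.

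Both groups were inbred male mice of strain C57BL/6J, bought at 7 weeks of age and acclimatised for 1 week. All were then fed a 60% high-fat diet for 4 months, so the diet is shared and a group on standard diet was not analysed here. The control group received the diet alone. The ethanol group also drank water with ethanol during the last 3 months of the diet. The daily intake was set at 5 g/kg for an opening week and raised to 10 g/kg for the rest. Liver RNA of 5 randomly chosen mice per group was hybridised to 1-colour Agilent arrays, 1 mouse per array, so n = 5 counts animals.

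Complex I takes electrons from NADH, passes them to ubiquinone and pumps protons across the inner mitochondrial membrane. A peripheral arm in the matrix holds the N module, where NADH is oxidised, and the Q module, where ubiquinone is reduced. A membrane arm holds the proton pumps, whose central proteins are encoded by mitochondrial DNA. The Nduf genes encode the nuclear core subunits, which carry flavin and iron-sulfur clusters, the accessory subunits around them, and assembly factors that help to build the complex and are absent from its finished form. Oxidation of ethanol and of acetaldehyde in the liver both produce NADH. The 7 mitochondrially encoded subunits matched no probe and were not analysed here.

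The headers place the arrays on 3 slides that did not split the groups evenly. On slide 1 were control 4, control 5 and ethanol 4, on slide 2 only control 1 and control 3, and on slide 3 a single control array, control 2, beside the other 4 ethanol arrays. Between 55.5% and 59.1% of spots per array were well above background, and no complex I probe was saturated. All 6 hepatocyte markers were well above background on all 10 arrays, while Adipoq, Plin1 and Ucp1 of fat and Acta1, Ckm and Myh4 of striated muscle did not pass the filter. The fourth marker of each list, Lep of fat and Tnnt3 of muscle, was well above background on all 10 arrays, with log2 fold changes of 0.13 ± 0.10 (SE, adjusted p = 0.583) and 0.29 ± 0.12 (SE, adjusted p = 0.342). Over the 6 hepatocyte markers the mean per mouse, relative to the 10 mice, ran from -0.25 to 0.18 in control and from -0.53 to 0.32 in ethanol livers on the log2 scale, so the groups overlapped. The 4 stellate cell markers ran from -0.135 to 0.31 in control and from -0.23 to 0.03 in ethanol livers. Of 4 bile duct markers 2 passed the filter (Krt7 and Epcam did not), and these ran from -0.076 to 0.73 in control and from -0.59 to 0.22 in ethanol livers. The part of these lists in the values below was not tested. In whole liver, fewer cells of a type and less RNA per cell cannot be told apart.

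Complex I genes had slightly higher values in the ethanol livers, though no single gene passed the test. Of 46 genes 45 were higher, with a median log2 fold change of 0.14, which is a fold change of 1.11. Over all 15089 genes tested, 56.4% were higher and the median was 0.03. The differences of single genes lay between -0.29 and 0.30, with standard errors (SE, limma's moderated standard error) from 0.064 to 0.146. No complex I gene passed an adjusted p of 0.05 in limma with Benjamini-Hochberg adjustment over all genes, and the adjusted p ran from 0.21 to 0.972. Across all genes 3 passed, or 0.0199%. At an unadjusted p under 0.05 there were 11 complex I genes, or 23.9%, all higher with ethanol, against 7.97% of all genes higher and 5.3% lower. In 4 genes, or 8.7%, all ethanol values lay above all control values, against 1.94% of all genes. The 46 genes called complex I genes here include Ndufa4 and Ndufa4l2, which do not name lasting parts of the complex. Of the 36 subunits alone, 9 (25%) had an unadjusted p under 0.05, all higher, and 3 (8.33%) had separate groups. The count of 11 moved with single arrays: it was 5 (10.9%) without control replicate 1, against 4.73% of all genes, and 7 (15.2%) without control replicate 5, against 5.6%. Without ethanol replicate 4 it was 5 (10.9%), near the 8.8% of all genes, and without ethanol replicate 3 it was 19 (41.3%), against 6.96%. With the slide as a fixed block it was 0, against 2.8% of all genes. With the slide as a random block it was 16 (34.8%), against 12.7% of all genes, at an estimated slide correlation of -0.13. The count of genes with separate groups was 10 without control replicate 2, 10 without ethanol replicate 3 and 7 without ethanol replicate 2, where 4.87%, 3.29% and 2.54% of all genes were apart. It was between 4 and 6 without any other array, where between 2.09% and 3.39% of all genes were apart.

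**Figure D1:**
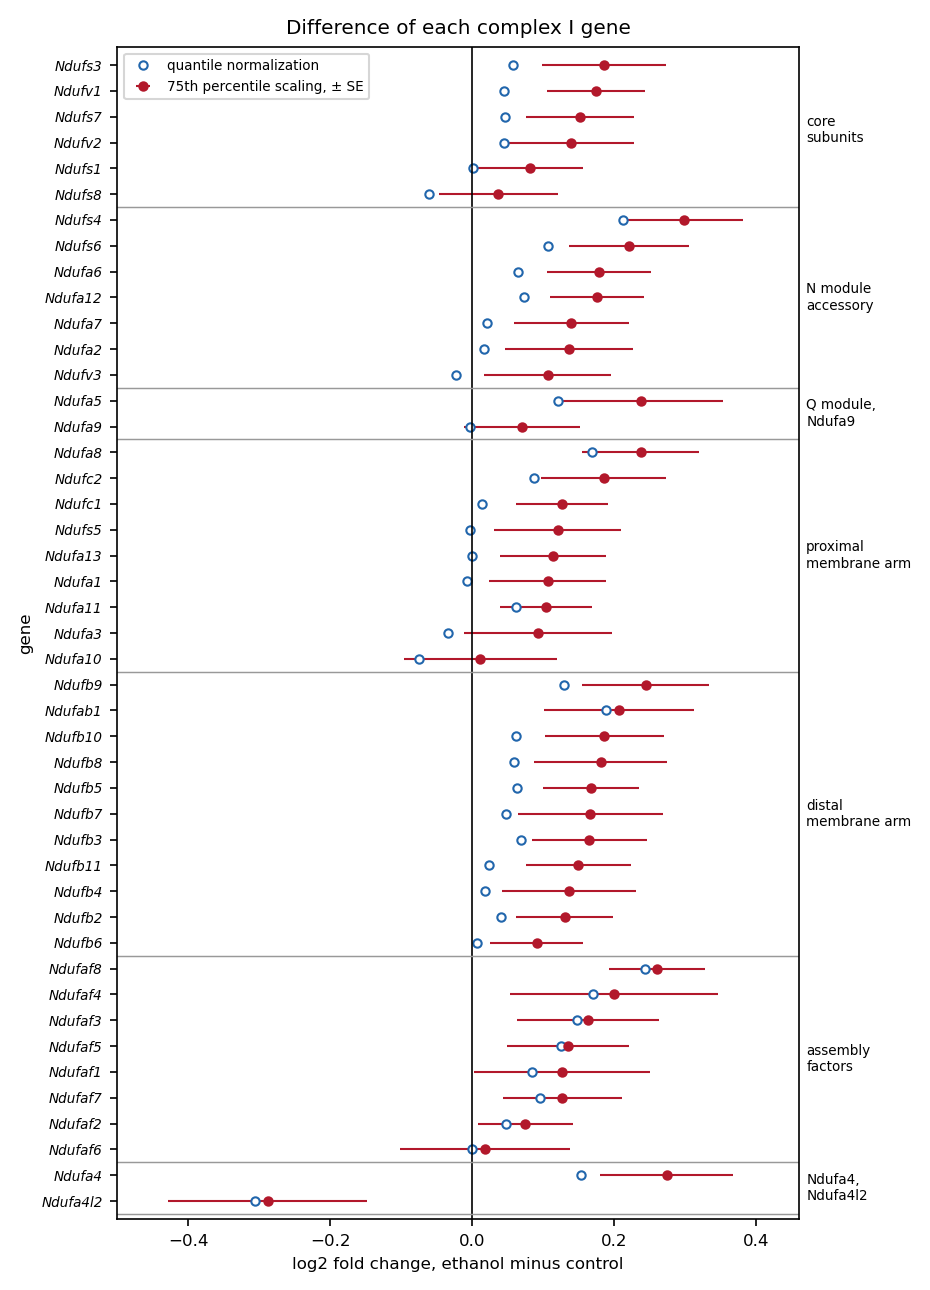
Log2 fold change (ethanol minus control, 5 mice per group) of 45 of the 46 complex I genes, grouped by role. Filled points are values scaled to each array's 75th percentile with their SE, and open points are values after quantile normalization. Filled points lie right of 0 for all genes but Ndufa4l2, and open points of most subunits lie closer to 0. Those of Ndufa10 and Ndufs8 lie farther from 0, on its left.

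These counts depended on how arrays were made comparable. The values above are log2 processed signals relative to each array's 75th percentile. After quantile normalization, which gives all arrays the same distribution of signals, 36 of 46 complex I genes were higher and their median log2 fold change was 0.05, a fold change of 1.04, while 46.3% of all genes were higher and their median was -0.02. There, 2 complex I genes (4.35%) had an unadjusted p under 0.05 and were higher, against 5.14% of all genes, so this share was near the background. Only the assembly factor gene Ndufaf8 kept its groups apart under quantile normalization, or 2.17% of the 46 genes against 1.09% of all genes. Cyclic loess, which removes trends with signal strength, gave 42 of 46 genes higher with a median of 0.08, against 45.7% of all genes higher.

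The shift between scalings was shared by other bright probes. Of the 46 complex I genes 37 belonged to the brightest 25% of all genes, where 68.5% of 3773 genes were higher with ethanol and the median log2 fold change was 0.06 under the 75th percentile scaling. Quantile normalization left 46.7% of those genes higher, with a median of -0.0090. The 37 complex I genes within it had a median of 0.15 under the first scaling and of 0.05 under the second, so they lay above the median of all bright genes under both.

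**Figure D2:**
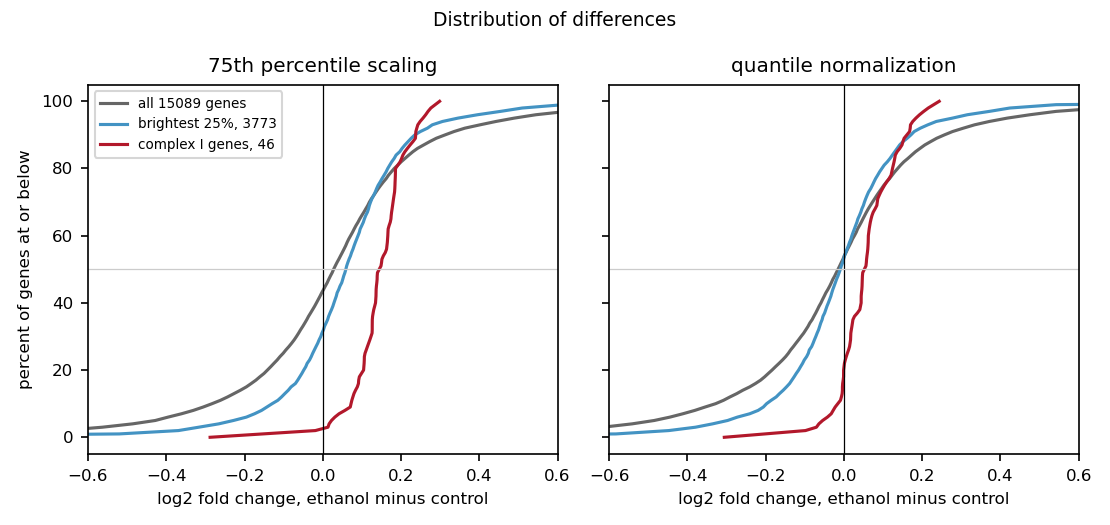
Percent of genes (vertical axis) with a log2 fold change at or below the value on the horizontal axis, for all 15089 genes, the brightest 25% and the 46 complex I genes, under 75th percentile scaling (left) and quantile normalization (right). The line of the complex I genes crosses 50% at 0.14 on the left and at 0.05 on the right.

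Values of single mice overlapped between the groups. The mean over the 36 complex I subunits, relative to the 10 mice, was -0.20, 0.04, -0.06, -0.04 and -0.11 in control replicates 1 to 5 and 0.08, 0.08, -0.05, 0.16 and 0.11 in ethanol replicates 1 to 5 on the log2 scale. The groups overlapped, because control replicate 2 was high and ethanol replicate 3 low for its group. Control replicate 1 had the lowest control value for 37 of the 46 genes, and ethanol replicate 3 had the lowest ethanol value for 23. Control replicate 2 had the highest control value for 26 genes and ethanol replicate 4 the highest ethanol value for 21. The mean of the control group was -0.08 ± 0.09 (SD, n = 5), and that of the ethanol group was 0.08 ± 0.08 (SD, n = 5). Over the brightest 25% of genes the means of control replicate 1 (-0.11) and ethanol replicate 4 (0.08) were also low and high, and the part of this array-wide shift in single genes was not tested beyond the other scalings.

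**Figure D3:**
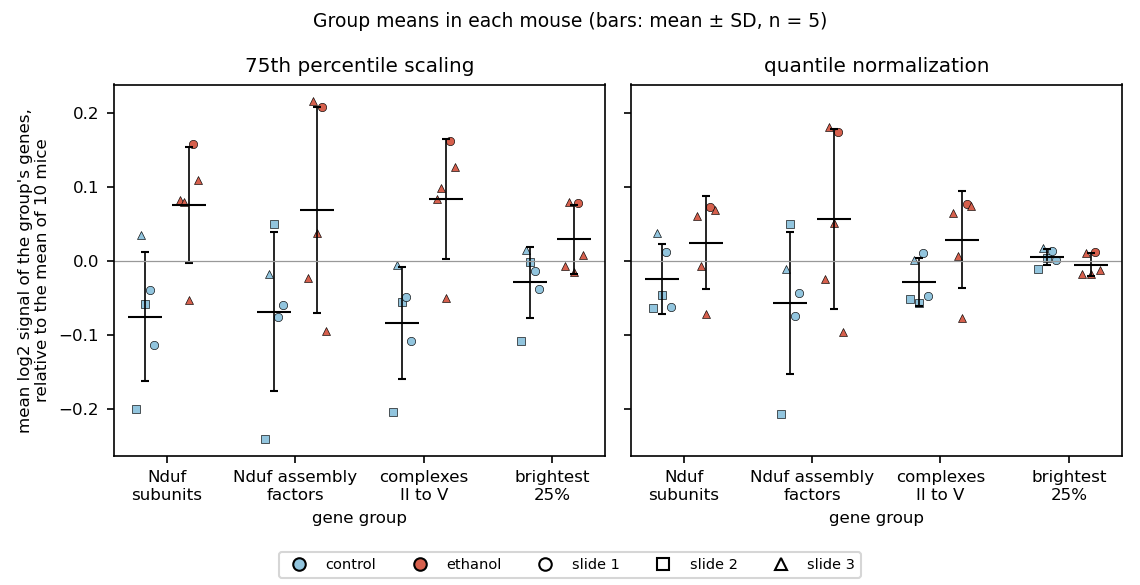
Mean log2 signal over the genes of 4 groups in each mouse, relative to the mean of 10 mice (vertical axis), under 75th percentile scaling (left) and quantile normalization (right). Colour gives the treatment, symbols give the slide, and bars are mean ± SD of 5 mice. In the subunits the ethanol mean lies above the control mean in both panels and the groups overlap, while the brightest 25% of genes moves with the subunits on the left and lies near 0 on the right.

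Slides gave different sizes. Within slide 1 the median log2 fold change of the 46 genes was 0.25 with 45 higher, and its 1 ethanol array was ethanol replicate 4, the highest. Within slide 3 the median was 0.03 with 30 higher, and its 1 control array was control replicate 2, the highest control. With the slide as a fixed block the median of the 46 genes was 0.12 with 43 higher, against 0.01 for all genes.

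In the core subunits, the 7 nuclear-encoded proteins of the catalytic centre, all genes were higher with a median log2 fold change of 0.15. After quantile normalization 6 of 7 were higher with a median of 0.04. Ndufv1 encodes the subunit that binds NADH and flavin. Its log2 signal was 6.13, 6.09, 6.22, 6.28 and 6.22 in control replicates 1 to 5 and 6.32, 6.48, 6.33, 6.40 and 6.29 in ethanol replicates 1 to 5. The groups did not overlap, by the narrow gap between 6.28 and 6.29. Its log2 fold change was 0.17 ± 0.07 (SE) with an adjusted p of 0.332, a second probe gave 0.23, and quantile normalization gave 0.04.

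Ndufs3, an early building block of the Q module, had 0.19 ± 0.09 (SE), and Ndufs7, an iron-sulfur subunit beside the ubiquinone site, had 0.15 ± 0.08 (SE). Ndufv2, an iron-sulfur subunit of the N module, had 0.14 ± 0.09 (SE). The smallest differences of the core were 0.08 ± 0.07 (SE) in Ndufs1 and 0.04 ± 0.08 (SE) in Ndufs8, both carriers of iron-sulfur clusters, and Ndufs8 had -0.06 after quantile normalization.

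Accessory subunits of the N module had the largest median among the role groups of 3 or more genes, 0.18 under the 75th percentile scaling, with 7 of 7 higher and 4 at an unadjusted p under 0.05, against 7.97% of all genes. Quantile normalization gave this group a median of 0.06 with 6 of 7 higher and 1 of 7 at an unadjusted p under 0.05, against 5.14% of all genes. Under that normalization the 8 assembly factors named Nduf had the largest median of these role groups, 0.11. Ndufs4 is known for mutations that cause Leigh syndrome, a brain disease of infancy. It read 4.35, 4.69, 4.53, 4.59 and 4.39 in control replicates 1 to 5 and 4.87, 4.71, 4.74, 4.83 and 4.88 in ethanol replicates 1 to 5. All ethanol mice lay above all control mice. The log2 fold change was 0.30 ± 0.08 (SE), with an adjusted p of 0.218, and 0.21 after quantile normalization. It was 0.34 within slide 1 and 0.11 within slide 3.

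Ndufs6, a zinc-binding subunit, had 0.22 ± 0.08 (SE), Ndufa6 had 0.18 ± 0.07 (SE), and Ndufa12 had 0.18 ± 0.07 (SE). Ndufa7 had 0.14 ± 0.08 (SE), and its adjusted p was 0.456. Of the Q module and its neighbour, Ndufa5 had 0.24 ± 0.11 (SE) and Ndufa9, which binds a nicotinamide nucleotide, had 0.07 ± 0.08 (SE). Within slide 3, which has 1 control array, both were lower with ethanol, at -0.10 and -0.12.

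The proximal membrane arm had 9 of 9 genes higher with a median of 0.11, but 4 of 9 higher and a median of -0.00089 after quantile normalization. Ndufa8, a subunit on the side of the intermembrane space, had 0.24 ± 0.08 (SE, adjusted p = 0.308). Its log2 signal was between 3.99 and 4.28 in control and between 4.25 and 4.47 in ethanol livers, so that the groups overlapped only slightly. Ndufc2 had 0.18 ± 0.09 (SE) and Ndufc1 0.13 ± 0.06 (SE), both small membrane subunits. Ndufa13, also known as GRIM-19, had 0.11 ± 0.07 (SE), and Ndufa11 had 0.10 ± 0.06 (SE). Ndufa10 was closest to 0, at 0.01 ± 0.11 (SE), and its second probe gave 0.01 too.

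The distal membrane arm, which holds most Ndufb proteins, had 11 of 11 genes higher under both scalings, with a median of 0.17 that became 0.06 after quantile normalization. Ndufb5 was 5.42, 5.58, 5.57, 5.60 and 5.51 in control replicates 1 to 5 and 5.64, 5.79, 5.64, 5.79 and 5.65 in ethanol replicates 1 to 5. The groups did not overlap. Its log2 fold change was 0.17 ± 0.07 (SE, adjusted p = 0.338), the second probe gave 0.18, and quantile normalization gave 0.06. Ndufb9 had 0.24 ± 0.09 (SE), Ndufb10 had 0.19 ± 0.08 (SE), Ndufb3 had 0.16 ± 0.08 (SE) and Ndufb11, encoded on the X chromosome, had 0.15 ± 0.07 (SE). Ndufab1, the mitochondrial acyl carrier protein that also serves fatty acid synthesis in mitochondria, had 0.21 ± 0.11 (SE) and kept 0.19 after quantile normalization.

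**Figure D4:**
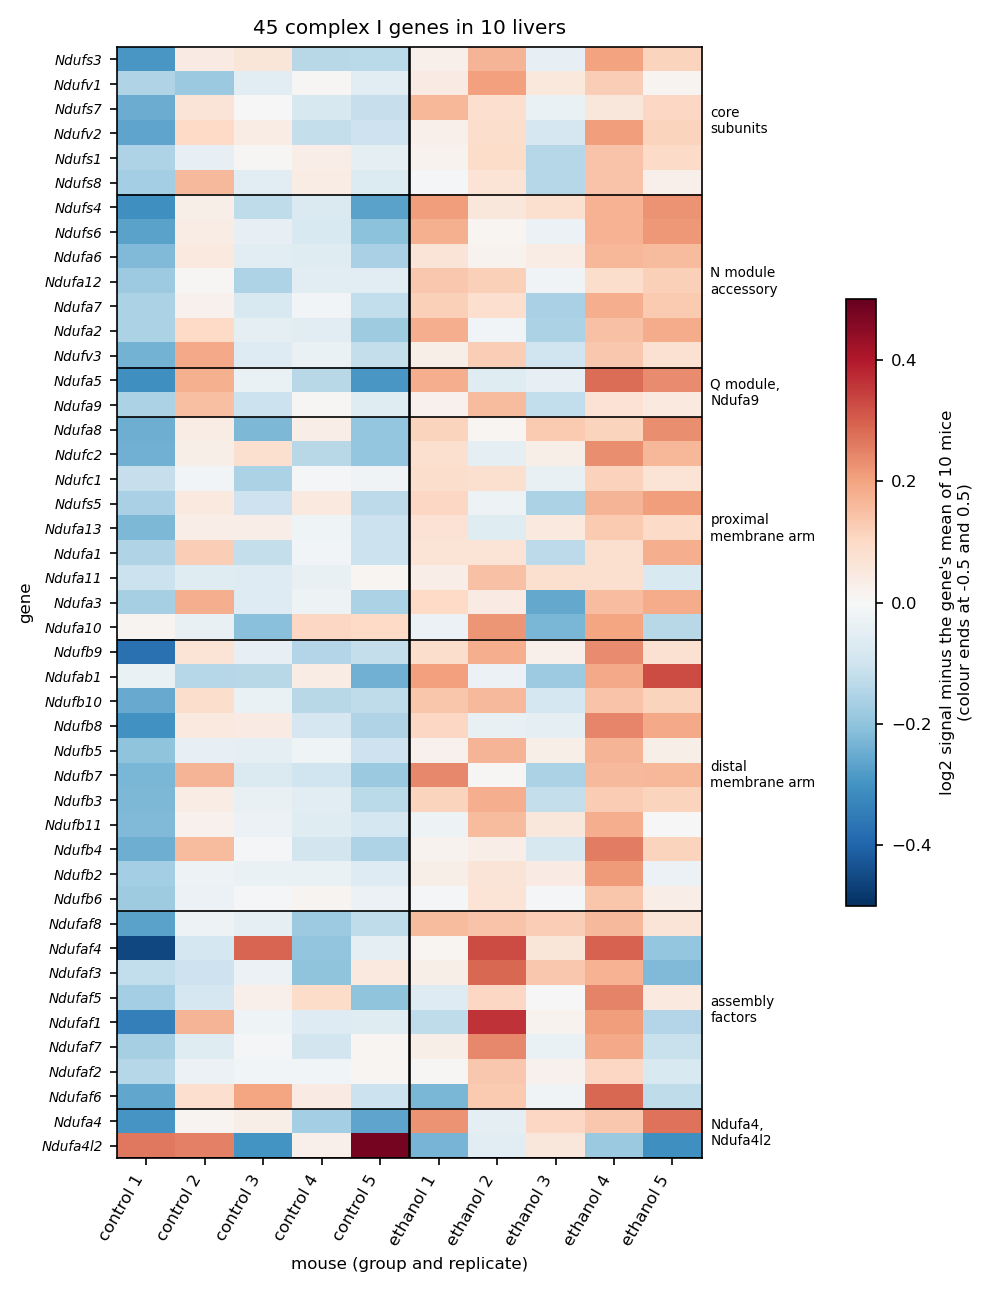
Log2 signal of 45 of the 46 complex I genes (rows, by role) in the 10 mice (columns), relative to each gene's mean of the 10 mice. Control replicate 1 is blue in nearly all rows and ethanol replicate 4 red, and Ndufa4l2 in the bottom row runs against the rest.

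The 8 assembly factors named Nduf depended less on the scaling than the subunits. All 8 were higher under the 75th percentile scaling, with a median log2 fold change of 0.13, and 7 of 8 after quantile normalization, with a median of 0.11. The probes used for them were dimmer than those of most subunits, with mean log2 signals from -0.17 (Ndufaf5) to 2.99 (Ndufaf1). The part of signal strength in this was not tested. For 12 assembly factors with other names the median of 0.06 became 0.0094 after quantile normalization. Ndufaf8, a partner of Ndufaf5 in early assembly, had the smallest unadjusted p of the 46 genes. Its log2 signal was 0.08, 0.32, 0.29, 0.16 and 0.22 in control replicates 1 to 5 and 0.50, 0.49, 0.47, 0.51 and 0.41 in ethanol replicates 1 to 5. The ethanol mice lay close together and above all control mice. The log2 fold change was 0.26 ± 0.07 (SE), which is a fold change of 1.20, with an adjusted p of 0.21. It was 0.24 after quantile normalization, 0.32 within slide 1 and 0.146 within slide 3, and it ran from 0.146 to 0.316 over 29 other settings, in none of which it passed.

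Ndufaf4 and Ndufaf3, which act together on the Q module, had 0.20 ± 0.15 (SE) and 0.16 ± 0.10 (SE). Ndufaf5, which hydroxylates an arginine of Ndufs7, had 0.13 ± 0.09 (SE), with 0.03 from its dimmer probe. Ndufaf7, a protein methyltransferase, had 0.13 ± 0.08 (SE), with 0.13 from its other probe. Ndufaf1, which is part of the assembly complex of the membrane arm, had 0.13 ± 0.12 (SE), Ndufaf2, a relative of Ndufa12, 0.07 ± 0.07 (SE), and Ndufaf6 0.02 ± 0.12 (SE). In the mean over the 8 assembly factors ethanol replicate 2 was highest (0.22) and ethanol replicate 5 lowest of its group (-0.095), whereas ethanol replicate 5 was the second highest in the subunits.

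The remaining Nduf symbols, Ndufa4 and Ndufa4l2, do not name lasting parts of complex I. Ndufa4 encodes a protein now placed in complex IV, cytochrome c oxidase. It was between 6.05 and 6.38 in control and between 6.30 and 6.62 in ethanol livers, with a log2 fold change of 0.27 ± 0.09 (SE, adjusted p = 0.3) and 0.15 after quantile normalization. Ndufa4l2, its relative and a known target of hypoxia-inducible factor 1, was the only member lower with ethanol under the 75th percentile scaling, while 10 of 46 were lower after quantile normalization. Its log2 signal was -0.71, -0.72, -1.27, -0.95 and -0.49 in control replicates 1 to 5 and -1.21, -1.03, -0.91, -1.16 and -1.28 in ethanol replicates 1 to 5. The groups overlapped through control replicates 3 and 4. The log2 fold change was -0.29 ± 0.14 (SE, adjusted p = 0.395), and it was -0.31 after quantile normalization, -0.44 within slide 1 and -0.39 within slide 3.

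**Figure D5:**
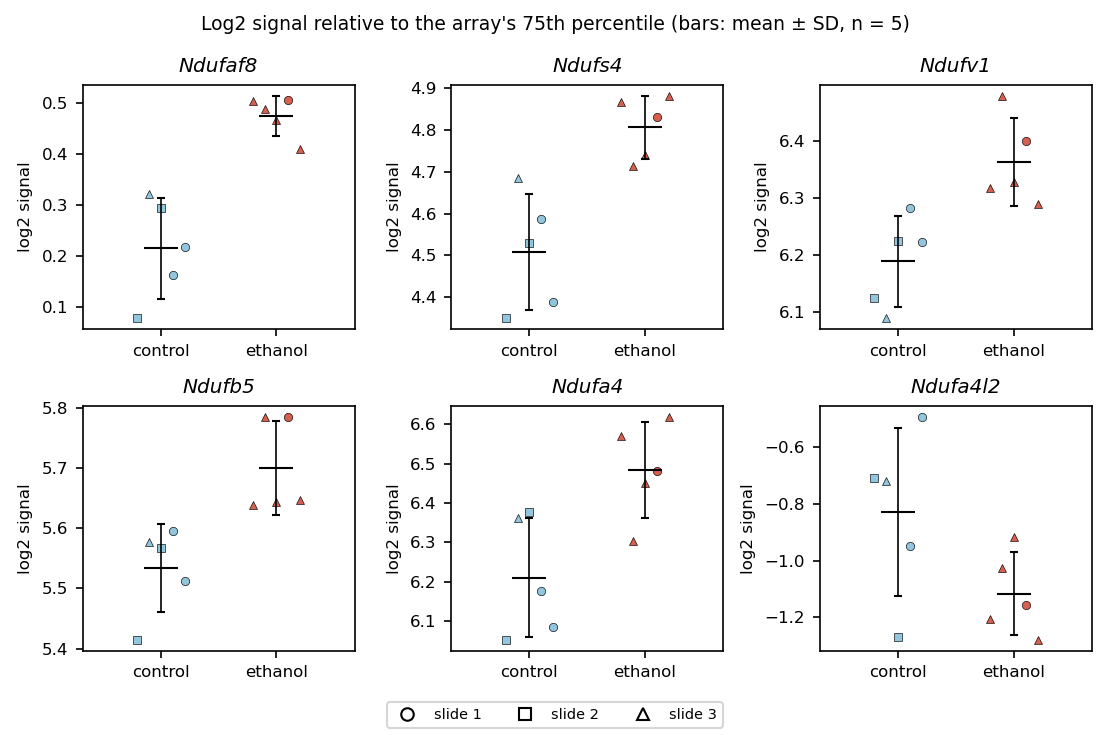
Scaled log2 signal (vertical axes, each with its own range, where 0 is the array's 75th percentile) of 6 Nduf genes in control and ethanol mice. Points are mice, symbols give the slide, and bars are mean ± SD of 5 mice. The groups do not overlap in Ndufaf8, Ndufs4, Ndufv1 and Ndufb5, and they overlap in Ndufa4 and Ndufa4l2.

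For 7 genes a second probe passed the filter, and in 7 of 7 both probes gave the same direction. The widest gap was in Ndufaf5 (0.10), and in Ndufa10 both probes agreed to the second decimal.

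The DNA upstream of the 4 genes whose groups did not overlap is printed here, because these are the members with the clearest separation of mice, chosen after their values were seen. Sequences are the 250 bases before the annotated start from RefSeq (GRCm38.p6), each 5′ to 3′ on the gene's strand, and capitals mark a motif. The motifs searched on both strands were GCGCATG, a part of the site of nuclear respiratory factor 1, CCGGAAG, a core of sites of the GA-binding protein, and AAGGTCA, a core of sites of oestrogen-related receptors. Matches of CCGGAAG and AAGGTCA can share the letters AAG.
Ndufaf8, chr11:120098684-120098933, + strand: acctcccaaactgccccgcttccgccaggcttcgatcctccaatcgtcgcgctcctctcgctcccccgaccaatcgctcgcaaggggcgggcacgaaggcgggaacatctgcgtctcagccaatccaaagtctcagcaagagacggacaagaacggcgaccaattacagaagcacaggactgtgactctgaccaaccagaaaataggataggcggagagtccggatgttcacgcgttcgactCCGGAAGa
Ndufs4, chr13:114388095-114388344, - strand: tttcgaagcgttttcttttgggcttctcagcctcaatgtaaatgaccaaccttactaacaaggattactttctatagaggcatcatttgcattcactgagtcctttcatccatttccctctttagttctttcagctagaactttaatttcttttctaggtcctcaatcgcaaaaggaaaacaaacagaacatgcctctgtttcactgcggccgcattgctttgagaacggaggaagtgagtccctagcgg
Ndufv1, chr19:4012756-4013005, - strand: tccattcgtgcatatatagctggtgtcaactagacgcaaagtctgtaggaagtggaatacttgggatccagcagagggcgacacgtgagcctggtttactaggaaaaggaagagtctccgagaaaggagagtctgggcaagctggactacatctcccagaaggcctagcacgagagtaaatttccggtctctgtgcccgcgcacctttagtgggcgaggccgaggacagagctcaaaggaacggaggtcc
Ndufb5, chr3:32736813-32737062, + strand: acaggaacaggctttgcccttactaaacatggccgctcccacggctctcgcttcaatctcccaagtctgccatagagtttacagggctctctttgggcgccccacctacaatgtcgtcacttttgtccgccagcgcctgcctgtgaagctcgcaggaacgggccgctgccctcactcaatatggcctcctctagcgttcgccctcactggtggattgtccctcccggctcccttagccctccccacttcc

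Of these 4 windows that of Ndufaf8 held a match, CCGGAAG next to the start. Windows were given for 40 of the 46 genes, 42 windows in all, of which 5 (11.9%) held GCGCATG, 5 (11.9%) CCGGAAG and 3 (7.14%) AAGGTCA. Over all 32851 windows of the same length the shares were 3.24%, 6.91% and 4.08%. In 33 windows of genes of complexes II to V they were 15.2%, 27.3% and 6.06%. The median share of G and C was 58.4% in the windows of complex I genes and 52.4% in all windows. A match describes letters only and does not show that a factor binds there.

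Subunits of complex I varied together from mouse to mouse. After each group's mean was removed, the mean correlation between pairs of the 36 subunits over the 10 mice was 0.50, against 0.01 over all genes, 0.08 over the brightest 25% and 0.44 over the genes of complexes II to V. Quantile normalization lowered it to 0.29, with 0.0086 in the brightest 25% and 0.23 in complexes II to V. These correlations are descriptions over 10 arrays that share their scaling. The 7 accessory genes of the N module were most alike (0.77, and 0.66 after quantile normalization), and the 8 assembly factors had 0.64 and 0.58. Across the 10 mice, with group means left in, the subunits' mean followed that of 38 genes of complexes II to V (r = 0.99, and 0.96 after quantile normalization). It followed the mean of the 8 assembly factors less closely (r = 0.65 and 0.19). With group means removed, r was 0.99 and 0.96 for complexes II to V, and 0.47 and -0.04 for the assembly factors.

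With each group's mean removed, each of the 46 genes was correlated with the mean of the other subunits over the 10 mice. Of these genes 21 had a correlation of at least 0.8, led by Ndufs8 (0.95), while others were under 0.3. Among the latter were Ndufv1 (0.07) of the core, Ndufa11 (-0.05) and Ndufa10 (0.23) of the membrane arm, Ndufaf3 (-0.14) and Ndufa4l2 (-0.40). These correlations depended on the scaling, and fewer genes reached 0.8 after quantile normalization. There, Ndufs8 had 0.91 and Ndufa3 rose from 0.91 to 0.95, but Ndufb9 fell from 0.83 to 0.49 and Ndufs3 from 0.81 to 0.47. Ndufv1 had -0.45, Ndufa11 -0.64, Ndufa10 0.05, Ndufaf3 -0.55 and Ndufa4l2 -0.38 after quantile normalization. Ndufv1 also had the larger of its slide differences on slide 3, at 0.26, where the median of the subunits was 0.02. On slide 1, where that median was 0.24, it had 0.15.

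Other genes of the pathway were taken from lists chosen with earlier results of these data known. Of 13 assembly factors of complex I with other names 12 were measured, 9 were higher, and the median log2 fold change was 0.06. None had an unadjusted p under 0.05, against 7.97% of all genes higher and 5.3% lower. Nubpl, which delivers iron-sulfur clusters to complex I, had 0.20 ± 0.13 (SE), Tmem126b, a partner of Ndufaf1, 0.17 ± 0.10 (SE), and Dmac1 0.10 ± 0.08 (SE). Complexes II to V had 38 of 38 measured genes higher with a median of 0.17, and 31 of 38 with a median of 0.06 after quantile normalization. An unadjusted p under 0.05 was found for 18 of them (47.4%), all higher, against 7.97% of all genes. Separate groups were found for 7 (18.4%), against 1.94% of all genes. After quantile normalization these counts were 1 (2.63%), against 5.14% of all genes, and 0, against 1.09%. Their Atp5d and Atp5j2, subunits of the ATP synthase, had 0.23 ± 0.06 (SE) and 0.27 ± 0.08 (SE), and Cox5a of complex IV had 0.21 ± 0.07 (SE). No difference between complex I and the other complexes was tested.

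Regulators of mitochondrial gene expression were higher in 9 of 11 genes, with a median of 0.08. None had an unadjusted p under 0.05, against 7.97% of all genes higher and 5.3% lower. Ppargc1a, a coactivator that promotes mitochondrial biogenesis, had -0.19 ± 0.15 (SE). Tfb2m and Polrmt, which transcribe mitochondrial DNA, had 0.18 ± 0.09 (SE) and 0.10 ± 0.06 (SE). Of 10 genes for mitochondrial import, carriers and matrix proteins 9 were higher, with a median of 0.13, which became 0.03 after quantile normalization. Timm23 of the import channel had 0.26 ± 0.08 (SE), the matrix chaperone Hspa9 0.23 ± 0.08 (SE) and Tomm20, an import receptor, 0.21 ± 0.07 (SE). None of the genes named in these lists passed the threshold, with adjusted p-values from 0.226 to 0.623.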

How the data were processed

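Liver RNA of 10 mice was measured on 10 arrays. Per the file headers, the authors' deposited intensities come from Agilent Feature Extraction (10.7.3.1) on a design built on mm9. The processed intensity is background-subtracted and on a linear scale. The authors also deposited 1 table on a log2 scale, centred per probe on an unknown value that cancels in differences between groups (median of its columns between -0.12 and 0.08). The steps that made it are not described here. Its deviations correlated with those computed here at r of 0.991 to 0.998 per array over 31110 probes.

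Spots marked as controls or outliers did not enter. The processed intensity of each spot was scaled to each array's 75th percentile, floored at 4 signal units, put on the log2 scale and averaged per probe. Probes well above background on at least 4 of 5 arrays of a group were kept (31110 of 56605). The scanner tables have no gene name column here, so symbols came from the RefSeq table for GRCm38.p6 by accession (32994 probes matched 1 symbol), and the brightest kept probe stood for a gene. The test was limma's (version 3.58.1, R 4.3.3, lmFit and eBayes) with Benjamini-Hochberg adjustment over 15089 genes, checked on simulated data. The number of arrays limits precision. Named genes were the up to 5 members of each role with the smallest p and the up to 3 of each other list. Values are also given for Ndufs1, Ndufs8, Ndufa3, Ndufa10, Ndufab1, Ndufaf1, Ndufaf2 and Ndufaf6, which this rule did not pick. These were named with their values at hand. Members, lists and tests were chosen with earlier results of these data known. Of the 46 genes 1 enters the counts, medians and group means but is not reported here by itself. Alternatives changed the normalization, background, floor, filter, probe rule, source table, slide, slide column, replicate block, variance model and arrays included. Median spot signals stood in for mean signals in normexp.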

Additional observations from a re-analysis of the deposited data

Results flagged for a closer look

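Among 96 sets of 5 mice examined for named genes and group means, 6 held a mouse far from the others by Dixon's ratio (above 0.71), where chance flags about 1 in 20. Ethanol replicate 3 stood low in Ndufa7 (6.06, the others from 6.30 to 6.40), Ndufb10 (6.52, the others from 6.72 to 6.77) and Ndufb3 (5.25, the others from 5.48 to 5.55). Control replicate 1 stood low in the mean of the core subunits, at -0.20 with the others from -0.07 to -0.02. Outside complex I, control replicate 2 stood low in Nubpl (0.54, the others from 0.98 to 1.05), and control replicate 3 stood high in Tomm20 (3.89, the others from 3.67 to 3.73).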

How the results depend on the processing

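No complex I gene passed the threshold in any of 30 alternatives to the setting used above. The median log2 fold change of complex I genes was 0.052 with quantile normalization, 0.25 within slide 1 and 0.026 within slide 3, and ran from 0.11 to 0.18 with 1 array left out, lowest without control replicate 1. That of complexes II to V was 0.057 with quantile normalization, 0.080 with cyclic loess and 0.041 within slide 3, and from 0.15 to 0.21 with 1 array left out. Between 43 and 45 genes were higher with 1 array left out. The count of all genes past the threshold, 3 in the report, was 0 without the filter, with slide as a fixed block, within slide 1 or 3, without slide 2 and with the slide column as a covariate, 7 with normexp and with trend and robust variance, 12 with slide as a random block, 14 with array weights, and 0 to 7 with 1 array left out (0 without control 3, 4 or 5 or ethanol 1, 1 without ethanol 2, 7 without ethanol 4). With the replicate block 0 of all genes passed and the median of complex I genes stayed at 0.14. Replicate numbers only name the mice, as same-numbered mice correlated between -0.11 and 0.32 and only number 2 matched its own number best. Without the 2 arrays in slide column 1, chosen after seeing the data, the median was 0.17.

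Of 28 named complex I genes, chosen by the smallest p of their role in these data, 23 kept their direction in 29 alternatives. Of these alternatives 10 only left out 1 array. Of all 46 genes 9 turned from higher to lower with quantile normalization. Within slide 3, 16 of the 46 were lower, among them Ndufa4l2, which was lower in the main setting too. Ndufa9 was at -0.0038 with quantile normalization, -0.016 with normexp, -0.022 with slide as a fixed block and -0.12 within slide 3, and Ndufa13 at -0.00089 with quantile normalization. Within slide 3 Ndufb10 was at -0.0059, Ndufv2 at -0.064 and Ndufa5 at -0.10. The cause of these moves was not tested. With 5 arrays per group the SE of single genes was between 0.064 and 0.146.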
